A study of Mus musculus with 2 samples.

Results

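Conventional type 1 dendritic cells (cDC1) were examined in 2 single-cell RNA-Seq libraries of mouse liver bearing cholangiocarcinoma (CCA). Cells were chosen by their own transcripts. A cell needed a unique molecular identifier (UMI) of *Xcr1* or *Clec9a* and UMIs of at least 3 of 6 genes (*Xcr1*, *Clec9a*, *Wdfy4*, *Cadm1*, *Naaa* and *Flt3*). It also needed to have no UMI of *Fscn1*, a gene of mature dendritic cells, or of *Cd3e* or *Cd79a*, genes of T and B cells. Of 31891 cells with 500 to 5000 detected genes and no more than 10% of UMIs from mitochondrial genes, 449 passed, 209 of 15531 with PBS and 240 of 16360 with anti–PD-1. The gate turned out to hold more than cDC1. Of the 449 cells, 248 carried high levels of macrophage transcripts, and 183 with few UMIs of the macrophage genes C1q and of the plasmacytoid gene *Siglech* are called cDC1-like here.

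cDC1 are rare dendritic cells that take up dead cells and present their antigens on MHC class I to CD8 T cells, a process called cross-presentation. They develop under the transcription factors IRF8, BATF3 and ID2 and the growth factor FLT3L, the ligand of FLT3. XCR1 lets them follow the chemokine XCL1 made by NK and T cells, and CLEC9A binds actin exposed by dying cells. In tumors they are known as a source of IL-12 and of the T cell–attracting chemokines CXCL9 and CXCL10.

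Tumors were induced by hydrodynamic tail vein injection (HDTVI) of plasmids for an activated Notch receptor (NICD) and myristoylated AKT. All animals of both libraries were shYT: a CAG promoter drove the rtTA3 activator throughout the body, and doxycycline, given from day 25, switched on shRNAs against YAP and TAZ (*Yap1* and *Wwtr1*) in the immune cells too. One group received PBS and the other an anti–PD-1 antibody (clone RMP1-14) on days 26, 29 and 32. Livers were collected on day 33. The labels give 1 library per group and do not say how many animals, which sex or which shYT line went into each, and no library without YAP/TAZ depletion was used here, so the variation between animals is not known and no test was made. A legend of the study gives animals per group for its T cell maps, but not how they were placed in the libraries. The 95% intervals reflect counting error and nothing else.

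The libraries held 100807037 to 121713441 UMIs, and the median depth of kept cells was 2990 to 3159 UMIs. They shared 219 cell barcodes, 3 of them on gated cells and 0 on a gated cell in both. The libraries also differed in sex-linked transcripts. In the cDC1-like cells *Xist*, transcribed from the inactive X chromosome of females, had 221 UMIs with PBS and 0 with anti–PD-1, and 4 Y-linked genes had 17 and 152. The PBS library was mixed, since of its 101 cDC1-like cells 64 had *Xist* UMIs only, 6 had Y-linked UMIs only, 3 had both and 28 had neither, whereas with anti–PD-1 60 of 82 had Y-linked UMIs only and 22 had neither. In comparisons over all cells, treatment and sex therefore cannot be told apart. The values in cells with Y-linked UMIs only, which rest on 6 PBS cells, stand in the closing section.

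The make-up of the gate is described first. Gated cells fell into separate groups by their UMIs of *C1qa*, *C1qb* and *C1qc*, complement genes of macrophages. In the PBS library 110 cells had under 10 C1q UMIs per 10000 and 91 had at least 70, with 8 between. In the anti–PD-1 library 80 had under 10, 148 had at least 70 and 12 lay between. A limit of 30 per 10000 was set after these values were seen. Cells above it are called C1q-high. Cells below it with fewer than 3 UMIs of *Siglech*, a plasmacytoid dendritic cell (pDC) gene, are called cDC1-like. The remaining 13 PBS and 5 anti–PD-1 cells were *Siglech*-high, with *Siglech* at 2807 and 2191 CPM (UMI counts of the summed cells, scaled to a common total) and the pDC genes *Ly6d* and *Cox6a2* also high.

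**Figure D1:**
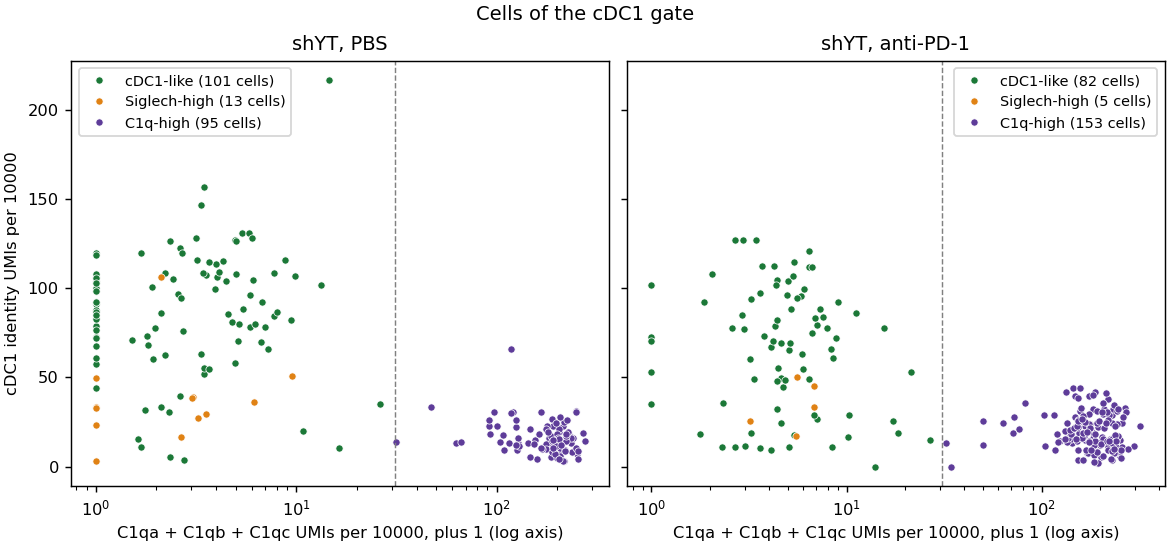
Each point is a gated cell, in the PBS library (left) and the anti–PD-1 library (right). The x axis gives its C1q UMIs per 10000 plus 1 on a log axis and the y axis its UMIs of 18 cDC1 identity genes per 10000, with colors for the fractions and a dashed line at the limit of 30. The C1q-high cells, 95 and 153, sit apart on the right with a median of 14.3 and 18.5 identity UMIs per 10000, and the cDC1-like cells, 101 and 82, reach a median of 88.5 and 70.3.

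The cDC1-like cells were 48.3% of the gate with PBS (41.4% to 55.3%) and 34.2% with anti–PD-1 (28.2% to 40.5%). In sum they carried genes of the lineage that the gate had not read, but not each cell did. Their identity UMIs per 10000 ran from 3.50 to 217 with PBS and from 0 to 127 with anti–PD-1, and 4 of 101 and 12 of 82 lay at or below the median of the C1q-high cells of their library. These low cells were 1 of 80 PBS and 0 of 53 anti–PD-1 cells with an *Xcr1* UMI, and 3 of 21 and 12 of 29 without one. *Irf8* (mm10 chromosome 8, 120736358 to 120756694, forward strand) was at 1915 CPM in PBS and 1658 CPM in anti–PD-1 cDC1-like cells, against 284 and 395 CPM in C1q-high cells. *Itgae*, the gene of the integrin CD103, was at 399 and 268 CPM against 15.0 and 0.983 CPM. *Cst3*, the gene of cystatin C, was at 19315 and 20574 CPM, against 2431 and 1377 CPM. The order reversed for macrophage genes. *Clec4f*, a receptor gene of Kupffer cells, was at 24.4 and 97.8 CPM in cDC1-like and 4190 and 3654 CPM in C1q-high cells. *Cd5l* stood at 16.7 and 89.3 CPM against 4287 and 4392 CPM, and *Vsig4* at 23.2 and 48.9 CPM against 2247 and 1501 CPM. The label cDC1 therefore went against the genes of the C1q-high cells. Of these, 95.8% with PBS and 85.0% with anti–PD-1 had a *Clec9a* UMI, 55.8% and 69.3% a *Naaa* UMI and 9.47% and 22.9% an *Xcr1* UMI. *Clec9a* was at 107 and 106 CPM, *Cadm1* at 273 and 319 CPM and *Xcr1* at 13.1 and 25.6 CPM. These levels describe how the fractions differ and were in part what the fractions were drawn by.

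The threshold of 3 markers cut through the C1q-high cells. Among cells with an *Xcr1* or *Clec9a* UMI and none of the excluded genes, 84 PBS and 105 anti–PD-1 cells lay just outside the gate with 2 markers, and 67.9% and 69.5% of them were above the C1q limit. Just inside, with 3 markers, were 80 and 117 cells, and 80.0% and 83.8% were above it. Of the 52 and 35 cells with all 6 markers, 1.92% and 0% were above it. *Irf8* followed the same order, from 461 and 442 CPM with 3 markers to 2162 and 2152 CPM with 6. When every cell was first thinned to 1500 UMIs, so that a deep cell had no better chance of passing, the gate took 64 PBS and 54 anti–PD-1 cells, of which 61 and 50 were cDC1-like. C1q-high cells were the deeper fraction, with a median of 10801 and 12910 UMIs, against 7498 and 10976.5 in cDC1-like cells.

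**Figure D2:**
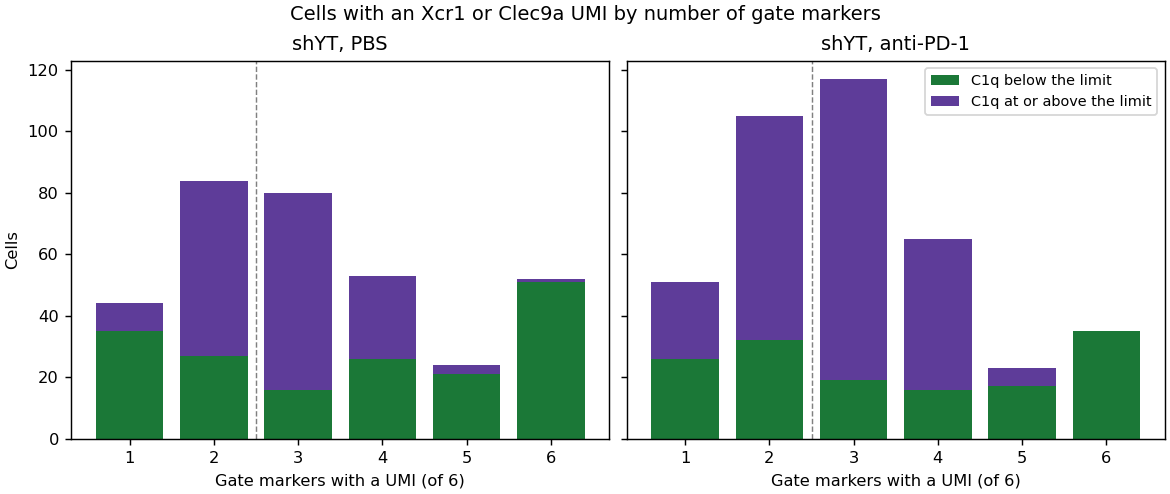
Bars count the cells with an *Xcr1* or *Clec9a* UMI and none of the excluded genes by how many of the 6 gate markers had a UMI, in the PBS (left) and anti–PD-1 (right) library, split at the C1q limit. The gate lies right of the dashed line, and the C1q-high share goes from 80.0% and 83.8% at 3 markers to 1.92% and 0% at 6.

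Genes were ranked by the ratio of cDC1-like cells over the next highest of the other gates and the C1q-high cells, in both libraries. The *Siglech*-high cells were not among those compared. The leading genes included gate markers (*Xcr1*, *Naaa* and *Clec9a*) and others. *Gpr141b*, an orphan receptor gene, was at 133 and 101 CPM, against at most 4.09 and 2.41 CPM in the cells compared. *Gcsam* was at 174 and 93.6 CPM, against 2.81 and 9.23 CPM. *Ifi205*, an interferon-inducible gene, was at 521 and 582 CPM, against 38.4 and 124 CPM. *Tlr3*, the sensor of double-stranded RNA in endosomes, was at 270 and 208 CPM, against 32.8 and 17.7 CPM, and *Ppt1*, a lysosomal enzyme gene, at 1456 and 1241 CPM, against 174 and 376 CPM. The rule also took *Fam149a*, *Sept3*, *Rtl8a* and *Ffar4*, and it required a high ratio in both libraries.

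As a share of all kept cells, the gate held 1.35% with PBS (1.17% to 1.54%) and 1.47% with anti–PD-1 (1.29% to 1.66%), 0.12 percentage points apart with an interval on both sides of 0 (−0.14 to 0.38). cDC1-like cells were 0.650% (0.530% to 0.790%) and 0.501% (0.399% to 0.622%), a difference of −0.149 points whose interval spanned 0 (−0.322 to 0.021). C1q-high cells were 0.612% and 0.935%, a difference of 0.324 points (0.127 to 0.521). Over all kept cells, a gate for cDC2, the other conventional dendritic cells, held 1.16% and 0.342%, and a gate for mature dendritic cells 0.315% and 0.116%. Of all cells in a dendritic cell gate, the cDC1-like cells were accordingly 27.0% (101 of 374) with PBS and 44.1% (82 of 186) with anti–PD-1, 17.1 points higher (8.38 to 25.8). The larger share went with fewer cells of the other dendritic gates, since cDC2 numbered 180 and 56 and mature dendritic cells 49 and 19.

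The question for expression was how cDC1 of shYT tumors differed with anti–PD-1. UMIs were summed per library, and ratios are given on the log2 scale as anti–PD-1 over PBS, with a pseudocount of 5 CPM that understates the change of low genes. Genes with a mean of at least 20 CPM count as measured, and higher or lower below means at least 2-fold. Over all gated cells, 186 of 6475 measured genes were higher (2.87%) and 87 were lower (1.34%). In cDC1-like cells, 248 of 6137 were higher (4.04%) and 139 were lower (2.26%), and the median of all measured genes was −0.02. These shares are the background for the lists below, which are given for the cDC1-like cells first. Of the cDC1-like cells, 80 of 101 in PBS and 53 of 82 in anti–PD-1 had an *Xcr1* UMI, and results were repeated in these. Numbers of cells with a UMI are unthinned below unless thinning is named. The anti–PD-1 cDC1-like cells were deeper (median 10976.5 against 7498 UMIs), so a UMI was more readily found in them.

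**Figure D3:**
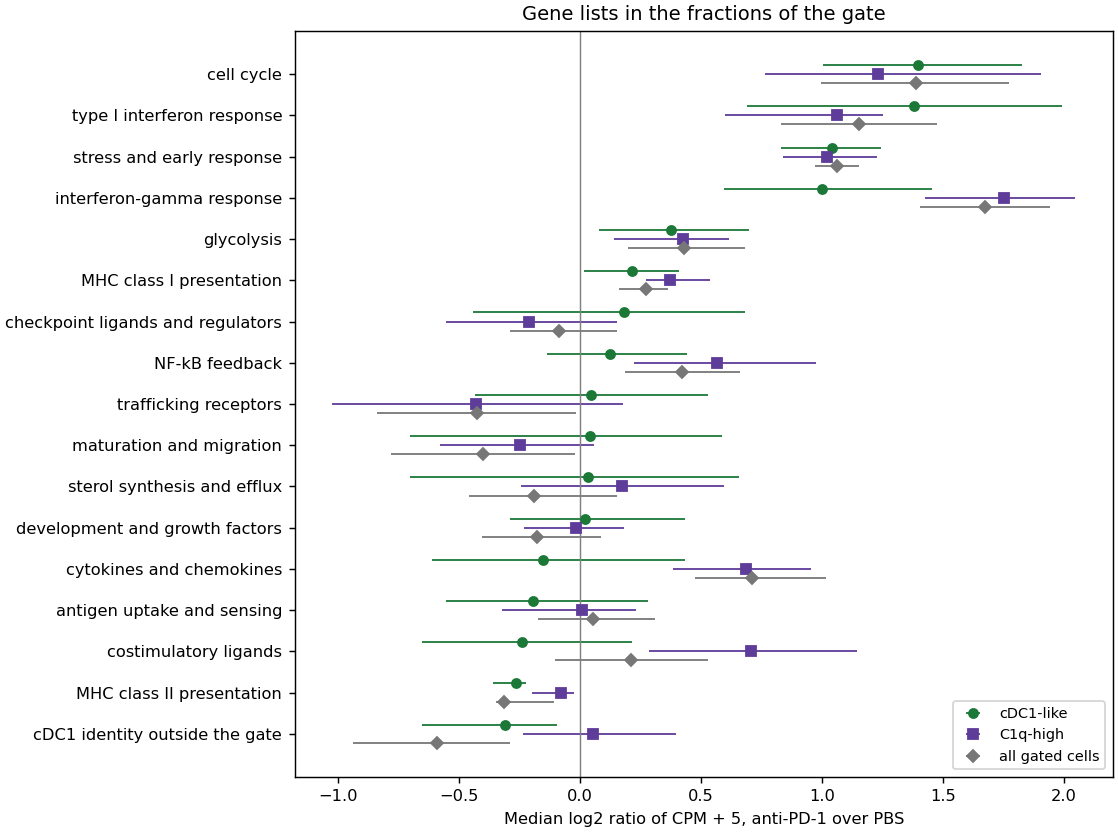
Points are the median log2 ratio, anti–PD-1 over PBS, of the measured genes of each list in cDC1-like cells (circles), C1q-high cells (squares) and all gated cells (diamonds). Lines run from the median of the members' lower interval bounds to the median of their upper bounds. The cell cycle (1.40), type I interferon (1.38), stress (1.04) and interferon-γ (1.00) lists lie above 0 in cDC1-like cells, and the cytokine list is at −0.15 in cDC1-like and 0.68 in C1q-high cells, over different sets of measured genes.

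Genes of cDC1 identity had ratios mostly below 0. Of 18 identity genes outside the gate, 17 had a ratio below 0, with a median of −0.31 (−0.65 to −0.10), 2 were lower past 2-fold and 0 were higher. *Snx22*, a sorting nexin gene, went from 148 to 47.9 CPM (−1.53, −2.01 to −1.06), and *Clnk*, an adaptor gene, from 50.2 to 21.3 CPM (−1.07, −1.76 to −0.38). *Irf8* had a ratio of −0.21 (−0.31 to −0.10), *Batf3* of −0.26 (−0.59 to 0.07) and *Id2* of −0.57 (−0.68 to −0.46). *Id2* was not lower in cDC1-like cells alone, and its ratio in cDC2 was −0.87. After thinning, *Id2* was found in 91.8% of PBS and 75% of anti–PD-1 cDC1-like cells. The shares were 59.9% and 44.5% in T cells and 40.1% and 23.8% in neutrophils, but 57.4% and 57.5% in C1q-high cells. Whether the *Id2* ratio reflects cDC1 identity was not tested. The gate markers themselves were read to choose the cells, so their levels are given as a description only. *Xcr1* (chromosome 9, 123852315 to 123862029, reverse strand) had 425 (PBS) and 526 (anti–PD-1) UMIs in cDC1-like cells, or 547 and 559 CPM, a log2 ratio of 0.03 (−0.15 to 0.22). *Naaa*, a lysosomal amidase gene, was at 1863 and 1816 CPM (−0.04, −0.14 to 0.07). *Flt3*, the growth factor receptor, was the gate marker that differed most, at 398 and 185 CPM on 309 and 174 UMIs (−1.08, −1.35 to −0.82). In cells with an *Xcr1* UMI, 12 of 18 identity ratios were below 0 and 6 above. Their median was −0.14, with an interval that spanned 0 (−0.45 to 0.15), and *Irf8* was at 0.02 and *Flt3* at −0.98. The sums over all cDC1-like cells include those low in identity UMIs, 4 of 101 with PBS and 12 of 82 with anti–PD-1. The part of these cells in the identity ratios was not tested. An *Xcr1* UMI was found in 79.2% of PBS and 64.6% of anti–PD-1 cDC1-like cells. After thinning the shares were 45.4% and 42.5%. Since the gate read *Xcr1*, these shares are a description as well.

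Antigen presentation genes stayed within 2-fold. Of 19 genes of the MHC class I pathway, 0 were past 2-fold, and the median was 0.21 (0.02 to 0.41) with 17 of 19 ratios above 0. *H2-K1* and *H2-D1*, the classical class I heavy chains, went from 1432 to 1913 CPM (0.42, 0.31 to 0.53) and from 2236 to 3020 CPM (0.43, 0.35 to 0.52). *Tap1*, a peptide transporter subunit, went from 277 to 397 CPM (0.51, 0.27 to 0.76). Of 13 class II genes, 0 were past 2-fold, and the median was −0.27 (−0.36 to −0.22). *H2-Aa* went from 11534 to 8964 CPM (−0.36, −0.41 to −0.32), and *Ciita*, the class II transactivator, from 363 to 239 CPM (−0.59, −0.84 to −0.34). The class II median was −0.13 in cDC2.

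Interferon-stimulated genes were higher with anti–PD-1. Of 14 measured genes of the type I interferon list 12 were higher and 0 lower, with a median of 1.38 (0.69 to 1.99). *Isg15* (chromosome 4, 156199424 to 156200818, reverse strand), a ubiquitin-like protein gene, had 16 UMIs in 12 of 101 PBS cells and 177 UMIs in 47 of 82 anti–PD-1 cells, or 20.6 and 188 CPM (2.92, 2.29 to 3.56). *Oasl1* went from 18.01 to 124 CPM (2.49, 1.82 to 3.17), *Irf7*, the factor that amplifies interferon production, from 78.5 to 286 CPM (1.80, 1.42 to 2.20) and *Rsad2*, the viperin gene, from 2.57 to 40.4 CPM on 2 and 38 UMIs. *Stat2* did not follow, at 135 and 132 CPM. In cells with an *Xcr1* UMI, where 4.64% of 5947 measured genes were higher and 3.73% lower, 6 of 12 genes of the list were higher and the median was 0.87 (0.26 to 1.67), with *Isg15* at 2.71 and *Irf7* at 1.94. In the 21 and 29 cells without one, 13 of 15 genes of the list were higher and the median was 2.12 (0.62 to 3.78). Of all 6639 genes measured in these few cells, 566 were higher and 1057 lower. The median was 1.06 in C1q-high cells, with 10 of 19 genes higher, against 3.14% higher and 1.68% lower of 6328 measured genes. In cDC2 it was 1.40, with 9 of 16 genes higher, against 4.31% higher and 5.29% lower of 6176.

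The interferon-γ list had a median of 1.00 (0.59 to 1.46) in cDC1-like cells, with 9 of 19 genes higher and 0 lower. *Gbp2*, an interferon-induced GTPase gene, went from 25.7 to 73.4 CPM (1.35, 0.71 to 2.00), and *Iigp1*, another, from 54.0 to 165 CPM (1.52, 1.06 to 2.00). The *Iigp1* UMIs of the PBS library lay in 5 cells and those of the anti–PD-1 library in 27. In cells with an *Xcr1* UMI the median was 0.67 (0.13 to 1.28), with 6 of 16 genes higher. In those without one it was 2.04 (0.58 to 3.51), with 12 of 16 genes higher. In C1q-high cells the list had a median of 1.75 (1.43 to 2.05), with 14 of 18 genes higher. Over the 18 genes measured in both fractions, the ratio of all cDC1-like less C1q-high cells had a median of −0.81 (−1.43 to −0.29). Against cDC2 the same difference was −0.37 (−1.22 to 0.31), where the range given is the median of the single genes' bounds.

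For the chemokine ligands of CXCR3 the intervals of the summed ratios spanned 0 in cDC1-like cells, but more anti–PD-1 cells had a *Cxcl9* UMI. *Cxcl9* (chromosome 5, 92321347 to 92328079, reverse strand) had 283 (PBS) and 327 (anti–PD-1) UMIs in cDC1-like cells, or 364 and 348 CPM (−0.07, −0.29 to 0.16). Its UMIs were spread differently, over 16 of 101 PBS cells and 37 of 82 anti–PD-1 cells, with the 5 highest cells holding 87.3% and 63.3% of them. The counting interval of the ratio does not take this spread into account. After thinning to 1500 UMIs, *Cxcl9* was found in 8.25% (3.63% to 15.6%) and 21.2% (12.9% to 31.8%) of cDC1-like cells. In C1q-high cells both shares were larger, at 14.9% (8.39% to 23.7%) and 34.0% (26.5% to 42.1%). T cells, which should lack it, were at 0.734% and 3.75% and neutrophils at 1.39% and 4.63%, with median depths of 2977 and 3870 UMIs in T cells and 1550.5 and 1972 in neutrophils. *Cxcl10* had 23 UMIs in 4 cells with PBS and 43 in 22 cells with anti–PD-1, a ratio of 0.55 (−0.11 to 1.22). In C1q-high cells *Cxcl10* went from 38.4 to 355 CPM (3.05), and the ratio of cDC1-like less C1q-high cells was −2.50 (−3.29 to −1.72). In cDC2 *Cxcl9* went from 18.7 to 116 CPM, a level still below that of cDC1-like cells in either library. The ratio of *Cxcl9* in cDC1-like cells depended on the cells summed, at 1.08 with no upper limit on detected genes and 4.04 in cells with Y-linked UMIs only.

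The cytokine list had a higher median over the whole gate than in cDC1-like cells. Over all gated cells it was 0.71 (0.48 to 1.01), in C1q-high cells 0.68 (0.38 to 0.95), and in cDC1-like cells −0.15 (−0.61 to 0.43), where 4 of 13 genes were higher and 3 lower. Over the 11 genes measured in both fractions, cDC1-like less C1q-high was −0.38 with an interval that spanned 0 (−0.92 to 0.15). *Ccl4* (chromosome 11, 83662584 to 83664683, forward strand), an inflammatory chemokine gene, had 71 UMIs in 22 cells (PBS) and 714 in 65 cells (anti–PD-1), or 91.3 and 759 CPM (2.99, 2.65 to 3.34), and was at 4.29 in cells with an *Xcr1* UMI. Its relative *Ccl3* went from 11.6 to 87.2 CPM (2.48, 1.71 to 3.22). *Il1b*, the interleukin-1β gene, went from 52.7 to 395 CPM (2.79, 2.36 to 3.24), but 221 of its 371 anti–PD-1 UMIs lay in the 29 cells without an *Xcr1* UMI. With *Xcr1* the *Il1b* ratio was 2.08, and it was 2.53 in C1q-high cells, 2.51 in cDC2 and 3.04 in the macrophage gate. Neutrophil marker UMIs, from genes such as *S100a8*, were found in 39.6% of PBS and 93.9% of anti–PD-1 cDC1-like cells (389 and 666 CPM), and their part in *Il1b* was not tested.

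*Ccl17*, a ligand of CCR4, went the other way, from 385 to 36.2 CPM (−3.24, −3.73 to −2.78), and *Ccl22*, a second ligand, from 143 to 45.7 CPM (−1.54, −2.03 to −1.07). Both rested on few cells. *Ccl17* had its 299 PBS UMIs in 13 cells and its 34 anti–PD-1 UMIs in 6, and the 5 highest cells held 92.3% and 97.1%. With the gate read on thinned cells its ratio was −0.87. In cells with UMIs of Y-linked genes but not of *Xist*, which were 6 and 60, it was 3.37 and that of *Ccl22* 3.62, so the direction of both depended on the cells summed. *Il12b*, the p40 subunit of IL-12, had 26 UMIs in 4 cells with PBS and 33 in 7 cells with anti–PD-1, 33.4 and 35.1 CPM (0.06, −0.61 to 0.74), and this depth could not show a difference. *Il10* had 0 and 10 UMIs in cDC1-like cells, and 31 and 608 in C1q-high cells, although it led the ranking over all gated cells with a ratio of 3.31.

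*Cd274*, the gene of PD-L1 (chromosome 19, 29367455 to 29388095, forward strand), differed between the fractions. Over all gated cells it went from 39.6 to 174 CPM (2.00, 1.69 to 2.33). In cDC1-like cells it had 24 UMIs in 11 cells and 35 UMIs in 22 cells, or 30.9 and 37.2 CPM (0.24, −0.44 to 0.92). After thinning it was found in 1.03% and 3.75% of them, a difference whose interval spanned 0 (−2.74 to 9.61 points). C1q-high cells had 51 and 490 UMIs, or 47.8 and 241 CPM (2.22, 1.84 to 2.62), and the difference between the fractions was −1.98 (−2.77 to −1.20). In cDC2 the ratio was 2.14, and the difference of cDC1-like less cDC2 was −1.91 (−2.81 to −1.003). The 8 neutrophil markers went from 632 to 2349 CPM in cDC2 and from 180 to 819 CPM in C1q-high cells. In cDC1-like cells they were at 389 and 666 CPM. After thinning, *Cd274* was found in 5.16% and 21.3% of neutrophils, and the part of their RNA in these ratios was not tested. Of the 5 measured checkpoint genes 0 were past 2-fold in cDC1-like cells.

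Of 8 measured costimulatory genes 1 was higher in cDC1-like cells, and the median was −0.24 (−0.65 to 0.21), against 1.62 in the 6 and 60 cells with Y-linked UMIs only. *Cd83*, a maturation marker, went from 225 to 557 CPM (1.29, 1.04 to 1.54), and its share of thinned cells from 18.6% to 43.8%, against 4.75% and 9.12% of T cells. *Cd86* was at 273 and 231 CPM (−0.24, −0.51 to 0.04) and *Cd40* at 77.2 and 43.6 CPM (−0.76, −1.30 to −0.22). The share of thinned cells with a *Cd40* UMI was 6.19% and 8.75%, a difference of 2.56 points with an interval that spanned 0 (−5.97 to 11.9), and without thinning it was 14.9% and 29.3%, so the lower summed level was not seen in the number of cells. The migration receptor *Ccr7* had 14 UMIs in 3 cells with PBS and 101 in 13 cells with anti–PD-1, of which the 5 highest held 92.1% (2.29, 1.61 to 2.98). In cells with at least 4 gate markers its ratio was −0.20, so the direction depended on the cells summed. The gate removes cells with an *Fscn1* UMI, a gene that goes with *Ccr7* in mature dendritic cells, and the maturation list as a whole had a median of 0.04 (−0.70 to 0.58), with 1 of 13 genes higher and 2 lower. In cDC2 the costimulatory median was 0.97 and the maturation median 0.37. Over genes measured in both, cDC1-like less cDC2 was −1.25 (−2.01 to −0.36) for 8 costimulatory genes and −0.82 (−1.44 to −0.07) for 9 maturation genes. The part of neutrophil RNA in the cDC2 values was not tested here either.

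Cell cycle genes were higher in cDC1-like cells. Of 13 measured genes 11 were higher and 0 lower, with a median of 1.40 (1.00 to 1.83). *Mki67* (chromosome 7, 135689784 to 135716361, reverse strand), a proliferation marker, went from 160 to 350 CPM (1.11, 0.82 to 1.41), *Top2a*, the topoisomerase of dividing cells, from 108 to 309 CPM (1.48, 1.14 to 1.83) and *Birc5*, the survivin gene, from 21.9 to 106 CPM (2.05, 1.41 to 2.71). In cells with an *Xcr1* UMI 14 of 14 genes were higher and the median was 2.13 (1.52 to 2.79). In the 21 and 29 cells without one it was −0.31 (−1.12 to 0.57). By cells, UMIs of at least 2 cell cycle genes were found after thinning in 9 of 97 cells with PBS (9.28%, 4.33% to 16.9%) and in 22 of 80 with anti–PD-1 (27.5%, 18.1% to 38.6%), a difference of 18.2 points (6.13 to 30.4). Without thinning the shares were 22.8% and 45.1%.

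**Figure D4:**
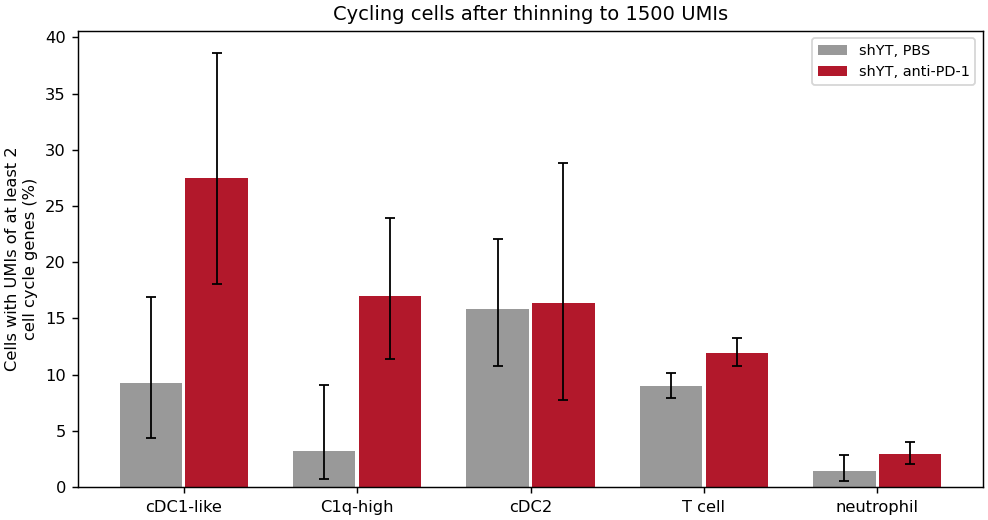
Bars give the percentage of cells with UMIs of at least 2 of 15 cell cycle genes after thinning to 1500 UMIs, in the PBS (gray) and anti–PD-1 (red) library, with exact binomial 95% intervals. cDC1-like cells went from 9.28% to 27.5% and C1q-high cells from 3.19% to 16.99%, and cDC2 were at 15.8% and 16.4%.

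In cDC2 the cycling share was 15.8% and 16.4%, a difference of 0.54 points (−10.1 to 14.0), and the list had a median of −0.23. Over the 13 genes measured in both, the ratio was higher in cDC1-like cells than in cDC2 by a median of 1.58 (0.76 to 2.38). Against C1q-high cells the same difference was −0.02 (−0.52 to 0.59) over 11 genes, and their own median was above 0 as well. Cell cycle genes were also higher in a pDC gate of only 44 PBS and 29 anti–PD-1 cells. There the list had a median of 4.46 (2.24 to 5.08) with 11 of 11 measured genes higher, against 10.7% higher and 13.9% lower of all 6545 measured genes. In the macrophage gate 0 of 10 measured genes were higher, against 317 of all 6512, and the median was 0.37 (0.25 to 0.50). In the mature dendritic cell gate the median was 1.50 over 3 measured genes, with an interval that spanned 0 (−0.19 to 3.08). Neutrophils, which do not divide once mature, were at 1.39% and 2.91%.

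Many early response genes, which also move with tissue dissociation, were higher as well, though not the whole list. Of 19 early response and heat shock genes 11 were higher and 0 lower, with a median of 1.04 (0.83 to 1.24), and in C1q-high cells the median was 1.02 and in cDC2 1.05. *Nr4a1*, an orphan nuclear receptor gene induced within minutes of stimulation, went from 139 to 821 CPM (2.52, 2.24 to 2.81), *Atf3* from 64.3 to 532 CPM (2.95, 2.56 to 3.37) and *Hspa1a* from 305 to 625 CPM (1.02, 0.81 to 1.24). Of the 5 heat shock genes of the list *Hspa1a* and *Hspa1b* passed 2-fold, and *Hsph1*, *Dnajb1* and *Hsp90aa1* had ratios of 0.71, 0.77 and 0.26. *Jun* and *Ier3* had ratios below 0, at −0.57 and −0.45, and *Egr1* and *Ier2* were at 0.40 and 0.14. Such genes stood among the 12 highest ratios of the cDC1-like cells. *Nfil3*, a transcription factor gene needed for cDC1 development, led that ranking with 8 UMIs (PBS) and 138 UMIs (anti–PD-1), or 10.3 and 147 CPM (3.31, 2.55 to 4.04). It was at 2.68 in cells with an *Xcr1* UMI, 3.29 in C1q-high cells, 2.72 in cDC2 and 2.81 in the macrophage gate. *Nfkbiz*, an NF-κB regulator, was also higher (2.03, 1.31 to 2.76), 1 of the 3 past 2-fold among 10 NF-κB feedback genes. After thinning, *Nr4a1* was found in 15.5% of PBS and 63.8% of anti–PD-1 cDC1-like cells. In T cells the shares were 10.1% and 40.4%, and in neutrophils 23.6% and 63.9%. The part of sample handling in these values was not tested.

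**Figure D5:**
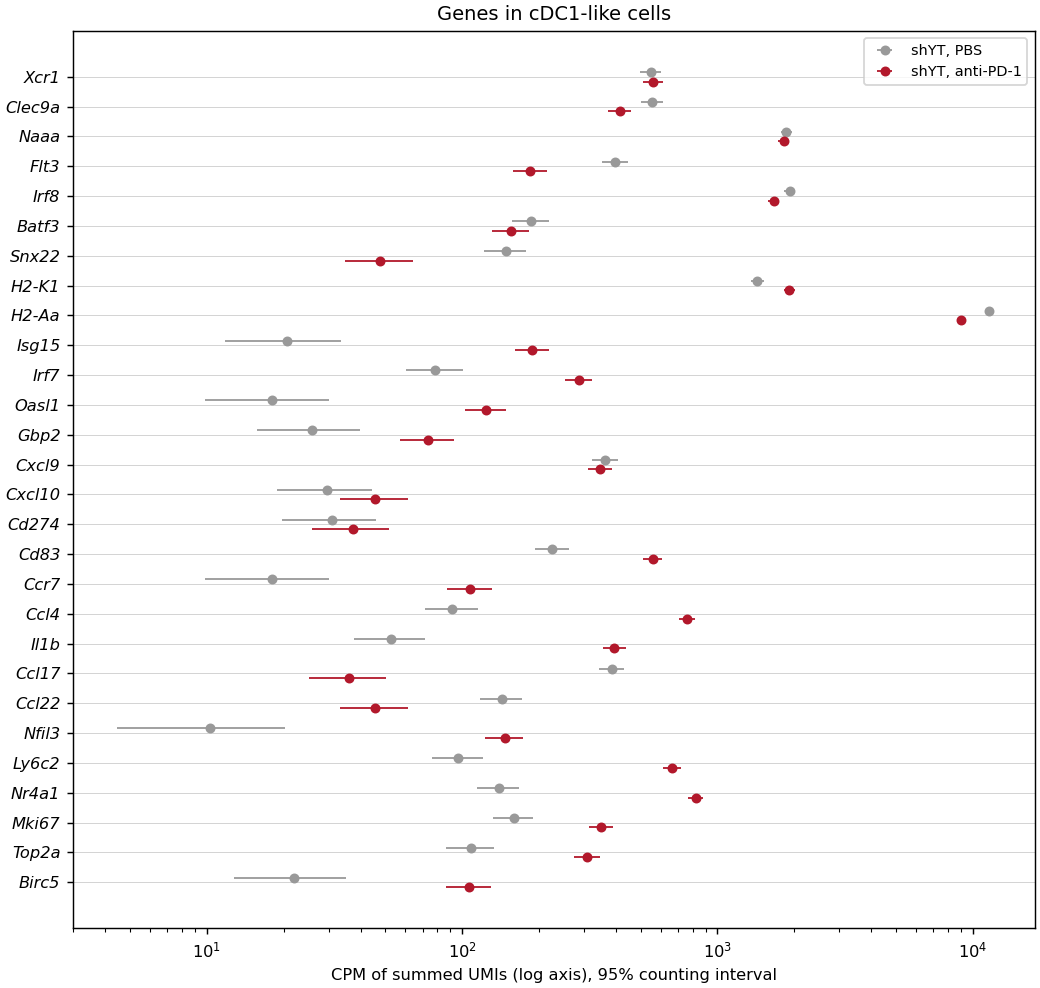
Points give the CPM of summed UMIs in cDC1-like cells of the PBS (gray) and anti–PD-1 (red) library on a log axis, with exact Poisson 95% intervals. *Xcr1* (547 and 559), *Cxcl9* (364 and 348) and *Cd274* (30.9 and 37.2) overlap, *Isg15*, *Ccl4*, *Nfil3*, *Nr4a1* and *Mki67* lie higher with anti–PD-1, and *Flt3*, *Snx22* and *Ccl17* lie lower. *Xcr1*, *Clec9a*, *Naaa* and *Flt3* were read by the gate, so their levels are a description only.

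Other genes of that ranking were *Plaur*, the urokinase receptor gene (10.3 and 135 CPM, 3.20), *Cd14*, the lipopolysaccharide co-receptor gene (37.3 and 281 CPM, 2.76), *Ly6c2* (96.5 and 664 CPM, 2.72), *Ly6a* (79.8 and 518 CPM, 2.63) and *Nr4a3* (51.5 and 309 CPM, 2.48). For 3 of these the cells without an *Xcr1* UMI held most anti–PD-1 UMIs, namely 106 of 127 for *Plaur*, 173 of 264 for *Cd14* and 439 of 624 for *Ly6c2*. *Ly6c2* marks monocytes as well as some dendritic cells, and was at 34.7 and 32.4 CPM in C1q-high cells (−0.08, so that cDC1-like less C1q-high was 2.80, 2.18 to 3.43). Among the lowest were *Chil3* (95.2 and 13.8 CPM, −2.41), whose UMIs lay in 8 and 5 cells and whose ratio was 2.14 with at least 2 gate markers, *Apol7c* (102 and 17.02 CPM, −2.28), in 3 and 2 cells, *Cmss1* (938 and 286 CPM, −1.70), in 95 of 101 and 70 of 82 cells, and *Txnip*, an inhibitor of thioredoxin (152 and 49.98 CPM, −1.51), in 62 and 28. In C1q-high cells and cDC2, *Cmss1* had ratios of −1.76 and −1.88, *Txnip* of −0.40 and −2.11 and *Chil3* of −1.93 and −2.94. Those of *Apol7c* were 0.67 and 0. The remaining low genes were *Ccser1*, *E230029C05Rik*, *Pfkfb3*, *Cldn1* and *N4bp2l1*, with ratios from −1.91 to −1.64.

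Trafficking receptors had a median of 0.05 (−0.43 to 0.53), with *Cxcr4*, which retains cells by CXCL12, higher (52.7 and 134 CPM, 1.27) and *Ccr2*, used to leave the marrow and enter tissue, lower (423 and 204 CPM, −1.03). Antigen uptake and sensing genes had a median of −0.19 (−0.55 to 0.28), with 1 of 13 higher. Development and growth factor genes had a median of 0.02, with *Nfil3* the 1 of 17 past 2-fold. Sterol genes were at 0.03 (−0.70 to 0.66, 2 of 9 higher and 1 lower). Glycolysis genes were at 0.38 (0.08 to 0.70), with 9 of 11 ratios above 0 and 1 past 2-fold, the glucose transporter gene *Slc2a1* (27.0 and 59.6 CPM, 1.01).

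Promoters of 3 interferon-induced genes that were higher are shown because genes of this kind are known for a response element, the interferon-stimulated response element. RefSeq windows of 300 bases (250 before and 50 after the start, build GRCm38.p6) were searched on both strands for its core, GAAANNGAAA. It was found in 4.46% of the 4977 measured genes with a window, in 5 of 11 measured type I interferon genes with a window, in 11 of 15 interferon-γ genes, in 0 of 16 stress genes and in 0 of 12 cell cycle genes. The windows of *Isg15* (chr4:156200769-156201068, reverse strand), *Rsad2* (chr12:26456403-26456702, reverse strand) and *Gbp2* (chr3:142620413-142620712, forward strand) each hold it, whereas those of *Cxcl9*, *Oasl1* and *Irf7* do not. Capitals mark the matches, which in *Isg15* overlap, and a match is not by itself a bound site.
Isg15: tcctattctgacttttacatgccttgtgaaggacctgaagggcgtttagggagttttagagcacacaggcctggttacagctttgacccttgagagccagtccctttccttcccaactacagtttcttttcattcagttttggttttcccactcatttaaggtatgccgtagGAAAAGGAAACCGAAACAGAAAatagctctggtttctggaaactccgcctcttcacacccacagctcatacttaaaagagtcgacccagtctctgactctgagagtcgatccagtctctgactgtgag
Rsad2: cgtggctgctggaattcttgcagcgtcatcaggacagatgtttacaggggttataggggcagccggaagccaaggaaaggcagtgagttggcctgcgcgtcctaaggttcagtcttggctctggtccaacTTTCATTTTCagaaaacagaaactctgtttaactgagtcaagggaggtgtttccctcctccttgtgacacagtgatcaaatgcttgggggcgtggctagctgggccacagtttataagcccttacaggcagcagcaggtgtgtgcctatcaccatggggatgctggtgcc
Gbp2: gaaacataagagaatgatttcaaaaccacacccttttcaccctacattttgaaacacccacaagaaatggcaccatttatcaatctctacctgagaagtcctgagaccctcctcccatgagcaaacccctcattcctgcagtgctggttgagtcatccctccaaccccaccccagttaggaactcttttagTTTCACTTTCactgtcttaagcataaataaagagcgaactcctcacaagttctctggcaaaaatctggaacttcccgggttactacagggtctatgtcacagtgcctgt
The 3 genes with the printed windows had ratios of 2.92, 2.58 and 1.35 in cDC1-like cells, while *Oasl1*, with no match in its window, had 2.49 and *Stat2*, with 1, had −0.03. Among the 11 type I genes with a window, the ratios of genes with and without a match overlapped. The search took exact matches only, and so few genes cannot show whether a match goes with the ratio.

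UMIs of marker genes of other cells were found in the cDC1-like cells and differed between the libraries. Summed UMIs of 10 macrophage markers were at 1481 and 1632 CPM, of 7 T cell markers at 57.9 and 121 CPM, of 6 monocyte markers at 782 and 1090 CPM and of 7 tumor and biliary markers at 800 and 455 CPM, and 10 of 10 macrophage markers had UMIs in both libraries. The markers of other cells lay unevenly within the cDC1-like cells. Monocyte markers went from 702 to 515 CPM in cells with an *Xcr1* UMI and from 1202 to 2285 CPM in the 21 and 29 cells without one. In the cells without *Xcr1*, 10 cDC2 markers went from 577 to 871 CPM and 8 neutrophil markers from 112 to 966 CPM, against 211 to 92.9 CPM and 441 to 521 CPM in those with it. These sums were uneven over cells. Among the 29 anti–PD-1 cells, monocyte markers had a median of 3.20 and a highest value of 117 UMIs per 10000. Neutrophil markers had 2.71 and 376. Whether such UMIs were RNA from outside or came from cells of another type within the fraction was not tested. Their part in the values above was not tested either, in these cells or in the cDC2 and C1q-high cells set beside them. In cDC1-like cells *C1qa* was at 68.2 and 135 CPM, against 4445 and 4316 CPM in C1q-high cells.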

How the data were processed

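The authors deposited unnormalized UMI counts for each gene in each cell from the Singleron GEXSCOPE V2 workflow, aligned to mm10, and the submitters' processing notes name Seurat 4.3. Strand handling and the treatment of multimapping reads are not given in the sources used here, so near-identical members such as *Gbp2* relatives, *Tgtp1* and *Tgtp2* are uncertain. Of 32589 gene identifiers 32445 were found in GENCODE vM21 (GRCm38), which gave the coordinates. The gate and its limits were applied to the UMI counts, which were summed per library and fraction and scaled to CPM, with exact Poisson intervals, ratio intervals combined from both, and Clopper-Pearson intervals for shares. A list's interval is the median of its members' bounds, so it shows the counting error of a typical member and not that of the median. Floors for a count of 0 are 3 counts. Cells were thinned to 1500 UMIs for shares, leaving out 4 PBS and 2 anti–PD-1 cDC1-like cells. Genes were named by rule: the 12 highest and 12 lowest ratios with a mean of at least 50 CPM (sex-linked and mitochondrial genes set apart), the leading members of each list, gate and identity genes, and the 12 genes leading over other gates. *Oasl1*, *Gbp2* and other listed genes fall under the lists, and promoter genes were chosen after their values were seen. The members and lists were chosen with earlier results of these data known, and the split by C1q after the gated values were seen. Scrublet (Scanpy 1.11.5) marked 0 of 15531 and 0 of 16360 cells, so the setting that left out its calls changed nothing and doublets were not removed. Leaving out the 5% of cells with the highest score was added. Python 3.11.15, NumPy 2.4.6, pandas 2.3.3, SciPy 1.17.1 and Matplotlib 3.10.9 were used, and the scripts were tested on simulated data.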

Additional observations from a re-analysis of the deposited data

Results flagged for a closer look

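Cells outside the cell filter also passed the gate, 16 with PBS and 34 with anti–PD-1, and the comparisons above do not use them. Of these, 9 and 21 had over 5000 detected genes.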

How the results depend on the processing

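Of the summary values, 318 results of alternative settings stayed within the counting interval or within 1.5 times the count. A further 56 moved beyond it, and 2 came to lie on the other side of 0 from their interval. Leaving out called doublets was 1 of these settings. It removed 0 cells and repeats the main values, so its results are among the 318 by construction. Changes of sign came 11 times among the summary values, in 5 distinct results, and 5 times beyond the counting interval. Among the other results, list medians included, they came 67 times, 21 of them beyond the interval. No paired analysis was possible because each group has 1 library, and no library could be left out. In cDC1-like cells alone, the values of the gate became 139 lower genes, −0.15 for cytokines, 1.00 for interferon-γ, 0.040 for maturation and 0.046 for trafficking receptors (−0.40 and −0.43 in the gate), and −0.149 and 17.1 points for the shares of kept and dendritic cells. The gate on thinned cells gave 308 higher and 235 lower genes, −0.24 for identity, 2.20 for the cell cycle, 0.051 for cytokines, 1.16 for interferon-γ and 15.5 points of dendritic cells in the gate, and 233 lower genes and 2.15 for the cell cycle in cDC1-like cells, where *Ccr7* was at −0.85. At least 4 markers gave 1.92 for the cell cycle in cDC1-like cells, −0.36 for class II and 0.87 for stress in the gate, and −0.20 for *Ccr7*. At least 2 markers turned *Chil3* to 2.14. Cells with an *Xcr1* UMI gave 222 lower genes, 2.13 for the cell cycle and 0.018 for *Irf8*. No upper limit on detected genes gave −0.37 for class II and 0.59 for the cell cycle in the gate. Means over cells gave 306 lower genes and −0.17 for class II in cDC1-like cells, and 168 lower genes in the gate. A minimum of 5 CPM gave 470 higher and 412 lower genes in cDC1-like cells and 169 lower in the gate, and one of 50 CPM gave 121, 48 and 29. A pseudocount of 20 CPM gave 149, 36 and 31. Without thinning, the cycling share of the gate differed by 27.8 points. Cells with UMIs of Y-linked genes but not of *Xist* were 6 PBS and 60 anti–PD-1 cDC1-like cells, and 21 and 179 gated cells. In the former they gave 981 higher and 1072 lower genes, 0.60 for class I, −0.40 for class II, −0.77 for identity, 3.89 for the cell cycle, 1.46 for cytokines, 3.52 for interferon-γ, 0.53 for stress, 1.62 for costimulatory ligands and for NF-κB feedback, 1.13 for maturation, 1.47 for glycolysis, 0.78 for sterol genes, 32.1 and 0.358 points for the shares of dendritic and kept cells, 3.37 for *Ccl17* and 3.62 for *Ccl22*. In the gate they gave 384 higher and 399 lower genes, 0.43 for class I, 0.028 for class II, −0.27 for identity, 3.31 for the cell cycle, 1.51 for cytokines, 0.35 for maturation, 0.87 for stress, 1.51 for type I interferon, and 36.6 and 0.859 points. Leaving out cells with at least 3 UMIs of another lineage left 1 PBS and 2 anti–PD-1 cells, a share of dendritic cells 1.52 points higher, and no sums. A higher minimum leaves fewer genes to count and a lower one more, and the cause of the other moves was not tested. Leaving out the highest doublet scores removed 2 and 2 gated cells. Depth limits what can be said of genes on few UMIs, such as *Il12b*, *Cd274* and *Cxcl10*.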
